A study of Mus musculus with 36 samples.

Results

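The genes described here encode enzymes that add acetyl groups to lysines of histones and transcription factors, and class I histone deacetylases that remove them: Ep300, Crebbp, Kat2a, Kat2b, Kat5, Kat8, Hdac1, Hdac2, Hdac3 and Hdac8. They were chosen by symbol as enzymes that could set acetylation beside SIRT7, a member of the NAD-dependent sirtuin deacetylases, and all 10 of the 10 had 1 row in each of the 3 RNA-seq tables, which list 46078, 35896 and 18721 rows. The study asked how acetylation of the lysine K198 of Pax5, the transcription factor that commits progenitors to the B lineage, is set in mouse B cell progenitors. The members are named by their transcripts, and no protein or enzyme activity was measured in these files.

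Lysine acetylation is written by families of enzymes that sit in different complexes. p300 and CBP, the products of Ep300 and Crebbp, are large paired coactivators that act at enhancers and promoters. GCN5 (Kat2a) and PCAF (Kat2b) are alternative catalytic subunits of the SAGA and ATAC complexes, TIP60 (Kat5) is that of the NuA4/TIP60 complex, and MOF (Kat8) that of the MSL and NSL complexes. The class I deacetylases use zinc: HDAC1 and HDAC2 work in the SIN3, NuRD and CoREST complexes, HDAC3 works in a corepressor complex of its own, and HDAC8 works outside these complexes and is known for deacetylating cohesin.

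The first table held pro-B cells (CD43+) and pre-B cells (CD43-) sorted by surface markers as B220+ and IgM- cells from bone marrow of 2 wild-type and 2 Sirt7-/- mice on the 129Sv background, between 8 and 16 weeks old, 1 library for each stage of each mouse. The labels give no sex for these mice, and the Y-linked Eif2s3y had between 2514 and 5432 normalized counts in all 8 libraries. The Sirt7-/- allele is a germline deletion of part of the gene, so all cells of these mice carry it. The second table held Pax5-/- pro-B cells on the C57BL/6 background, labelled as bone marrow cells but grown from fetal liver according to the methods, that were infected with empty retroviral vector (EV) or with vector for wild-type Pax5 (Pax5WT), the acetyl-mimicking K198Q or the K198R form, which cannot be acetylated at this residue. The third held pro-B cultures labelled as bone marrow cells, on the 129Sv background that the study used for its Sirt7-/- mice, either wild-type with EV or Sirt7-/- with EV, Pax5WT or K198R. All cultured cells grew on OP9 stromal cells with IL-7, SCF and FLT3-L, and infected cells were sorted by a marker on the vector. Every group had 2 libraries. The sorted libraries held between 50004827 and 55536608 reads, and the others summed to between 27814214 and 30520853 normalized counts, that is, counts scaled by the authors to make libraries comparable.

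Of the 8 sorted libraries, 4 carried cell type labels that named the other stage than their titles: wild-type and Sirt7-/- pre-B replicate 1 and wild-type and Sirt7-/- pro-B replicate 2. The titles were used, and most stage markers went with the titles: 5 of 6 pro-B markers fell and 3 of 5 pre-B markers rose from pro-B to pre-B libraries in each genotype. Dntt, the terminal transferase of pro-B cells, had between 19432 and 30750 normalized counts in the 4 pro-B libraries and between 131 and 3838 in the 4 pre-B libraries. Il2ra, a pre-B marker, had between 1593 and 3760 normalized counts in pro-B and between 16329 and 26038 in pre-B libraries. Igkc, the kappa light chain gene listed with the pre-B markers, did not follow them, with 234972 and 550267 normalized counts in wild-type and 439264 and 387073 in Sirt7-/- pro-B libraries against between 215431 and 269168 in pre-B libraries. One pre-B library, Sirt7-/- replicate 2, stood apart from the other pre-B libraries with its 3838 normalized counts of Dntt, 291 of Kit against at most 78.7, and the highest sum of 7 erythroid markers, 72991 normalized counts against at most 48399 in any other library.

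The targeted genes checked the genotypes. Sirt7 had 2692 and 2533 normalized counts in wild-type and 363 and 366 in Sirt7-/- pro-B cells, 5613 and 5219 against 1066 and 821 in pre-B cells, and 1324 and 905 against 336 and 387 in cultured cells with EV. The log2 fold changes were -2.84, -2.53 and -1.60, with adjusted p-values of 0.00292, 0.00931 and 0.0251. Unless another fit is named, these and all later adjusted p-values come from limma, fitted on log2 of the normalized count plus 1. All 4 groups of each table were fitted together, and p-values were adjusted over all genes tested (17649, 13345 and 13651 in the 3 tables). Genes with an adjusted p under 0.05 are said to have risen or fallen. Pax5 had 2201 and 2103 normalized counts in cells with EV, 6458 and 6152 with Pax5WT, 8918 and 8963 with K198Q, and 21162 and 16610 with K198R, a count of all Pax5 transcripts that does not separate the vector from the cells’ own, and the groups with different forms did not have equal levels. In cultured Sirt7-/- cells Pax5 had 25995 and 37114 normalized counts with EV, 43024 and 43260 with Pax5WT and 38690 and 45426 with K198R, and the log2 fold changes against EV, 0.47 and 0.43, did not pass the test (adjusted p = 0.426 and 0.241). Groups of 2 and 2 are too small for an exact permutation test by itself, whose smallest two-sided p is 0.333. Nothing in the labels says that the 2 cultured replicates of a group came from separate animals, so their p-values measure the spread between these libraries. The methods say, of experiments with mice in general, that a replicate is 1 mouse.

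Between pro-B and pre-B cells 5 of the 10 acetylation enzymes passed the test in each genotype, and in the other comparisons none did without a replicate block. In both genotypes Ep300, Crebbp and Hdac8 rose, Kat2a and Hdac2 fell, and Kat2b, Kat5, Kat8, Hdac1 and Hdac3 did not pass the threshold. That is 5 of 10 members in wild-type cells, where 40.2% of all genes tested were called, and 5 of 10 in Sirt7-/- cells, where 35.7% were called, so the share of members called was not far from that of all genes. With 1 library left out the share of all genes called ranged from 26.6% to 29.7% in wild-type and from 21% to 33.1% in Sirt7-/- cells, lowest without pro-B replicate 2 in each, where 4 of 10 members were called in each genotype. In each genotype the same 3 members rose and the same 2 fell. For all genes the shares that rose and that fell were 18.1% and 22.0% in wild-type and 16.5% and 19.2% in Sirt7-/- cells. The libraries of the stages did not overlap for 9 of 10 members in wild-type and 8 of 10 in Sirt7-/- cells, where 72.6% and 69.8% of all genes did not. The 10 members had a median log2 fold change of 0.23 for wild-type and 0.04 for Sirt7-/- cells, beside -0.04 for all genes in each.

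**Figure D1:**
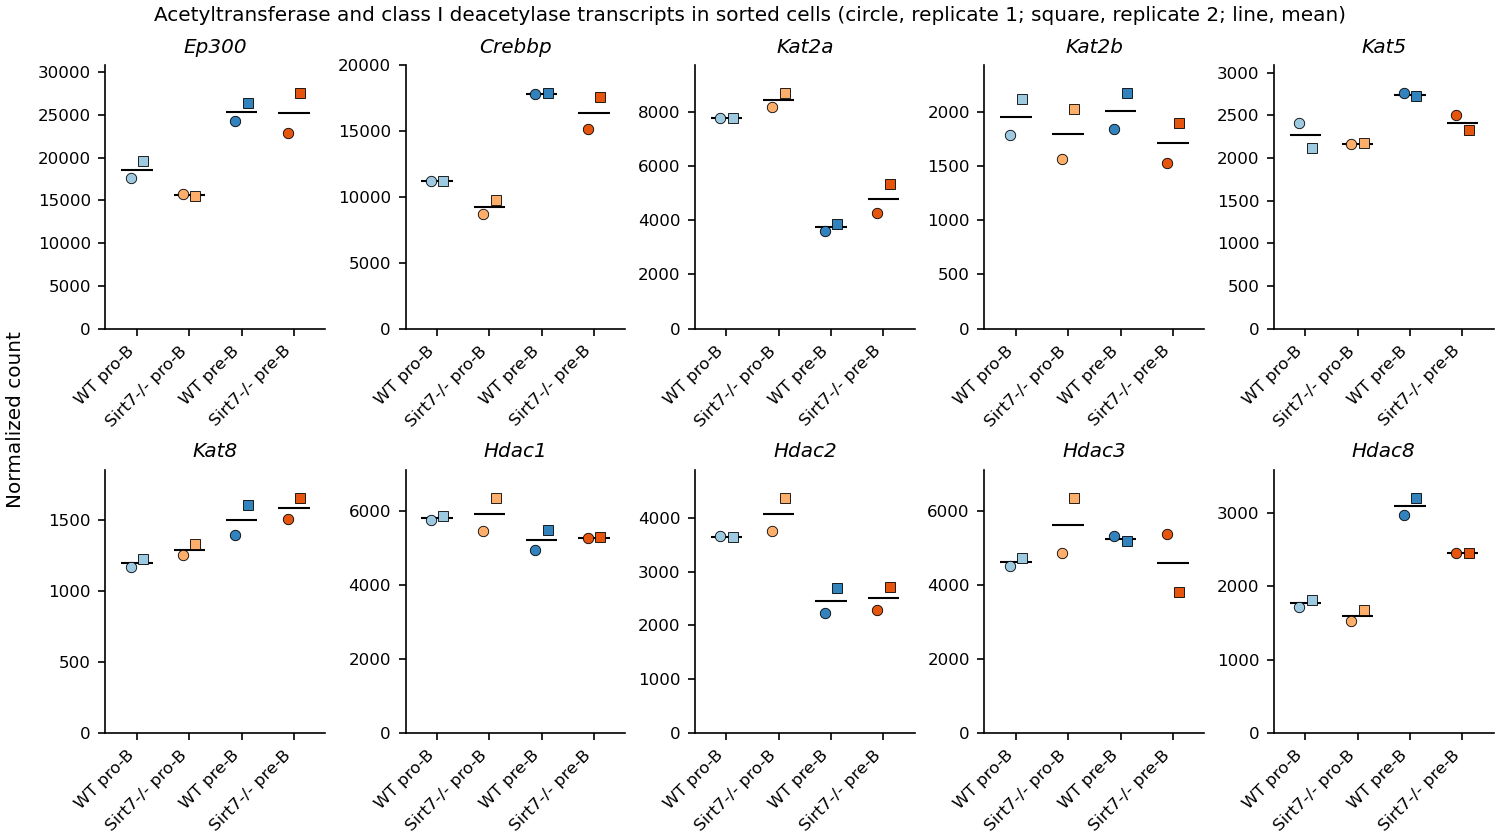
Normalized count (y axis, from 0) of each of the 10 genes in the 8 sorted libraries, by group (x axis; WT, wild-type; circles, replicate 1; squares, replicate 2; black lines, group means). Ep300, Crebbp and Hdac8 were higher and Kat2a and Hdac2 lower in every pre-B than in every pro-B library.

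Ep300 and Crebbp rose together. Ep300 had 17585 and 19583 normalized counts in pro-B cells of wild-type mice and 24241 and 26353 in wild-type pre-B cells, giving a log2 fold change of 0.45 (SE 0.11, adjusted p = 0.0171). Among Sirt7-/- libraries it had 15718 and 15501 normalized counts in pro-B and 22868 and 27504 in pre-B cells, giving a log2 fold change of 0.68 (SE 0.11, adjusted p = 0.00406). The stages did not overlap in either genotype. Crebbp had 11241 and 11242 normalized counts in pro-B cells of wild-type mice and 17848 and 17869 in wild-type pre-B cells, giving a log2 fold change of 0.67 (SE 0.10, adjusted p = 0.00221). Without Sirt7 its normalized counts went from 8729 and 9789 to 15136 and 17625, a log2 fold change of 0.82 (SE 0.10, adjusted p = 0.00152). The replicates of wild-type cells were almost equal at each stage, and every pre-B library lay above every pro-B library. The ratio of Ep300 to Crebbp, per kb of exon, was between 1.48 and 1.71 in pro-B libraries and between 1.29 and 1.48 in pre-B libraries.

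Kat2a had the largest change of the 10 in wild-type cells, and Kat2b, its alternative in SAGA and ATAC, did not pass the test. Kat2a fell from 7783 and 7775 normalized counts in pro-B cells of wild-type mice to 3617 and 3863 in wild-type pre-B cells, giving a log2 fold change of -1.06 (SE 0.12, adjusted p = 0.000769). Among Sirt7-/- mice it fell from 8182 and 8669 normalized counts to 4257 and 5332, a log2 fold change of -0.82 (SE 0.12, adjusted p = 0.00277). Its pre-B libraries lay far below its pro-B libraries in both genotypes. Kat2b had 1786 and 2117 normalized counts in pro-B cells of wild-type mice and 1844 and 2171 in wild-type pre-B cells, giving a log2 fold change of 0.04 (95% interval -0.39 to 0.48, adjusted p = 0.878), and in Sirt7-/- cells 1566 and 2026 in pro-B and 1525 and 1901 in pre-B cells (log2 fold change -0.07, 95% interval -0.50 to 0.37, adjusted p = 0.812). The replicates of Kat2b differed more than the stages did, and its sign in wild-type cells turned to -0.04 when the libraries were rescaled to equal totals, so no direction is given. Per kb of exon, Kat2a stood 6.10 and 5.14 times above Kat2b in the 2 wild-type pro-B libraries and 2.74 and 2.49 times in the wild-type pre-B libraries. The same ratios in Sirt7-/- cells were 7.31 and 5.98 in pro-B and 3.91 and 3.92 in pre-B libraries.

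The MYST family enzymes were higher in pre-B cells without passing the test. Kat5 had 2406 and 2121 normalized counts in pro-B cells of wild-type mice and 2755 and 2727 in wild-type pre-B cells, giving a log2 fold change of 0.28 (SE 0.10, adjusted p = 0.0671). The log2 fold change in Sirt7-/- cells was 0.16 (adjusted p = 0.277). Kat8 had 1165 and 1224 normalized counts in pro-B cells of wild-type mice and 1394 and 1600 in wild-type pre-B cells, giving a log2 fold change of 0.32 (SE 0.12, adjusted p = 0.0715), and in Sirt7-/- cells its log2 fold change was 0.29 (adjusted p = 0.103). For both genes every pre-B library lay above every pro-B library of the same genotype. Exons of Kat5 overlap those of Rnaseh2c on the other strand over 426 bases (12.1% of its exon bases) and exons of Kat8 those of Prss8 over 122 bases (4.22%). Whether strand was used in the counting is not given in the sources used here, and reads of these stretches could belong to either gene.

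Among the deacetylases Hdac2 fell while Hdac1, its partner in the same complexes, did not pass the test. Hdac2 had 3655 and 3651 normalized counts in pro-B cells of wild-type mice and 2224 and 2694 in wild-type pre-B cells, giving a log2 fold change of -0.58 (SE 0.14, adjusted p = 0.0168). Sirt7-/- libraries had 3758 and 4375 normalized counts in pro-B and 2287 and 2716 in pre-B cells, giving a log2 fold change of -0.70 (SE 0.14, adjusted p = 0.00949). The stages did not overlap in either genotype. Hdac1 had 5756 and 5873 normalized counts in pro-B cells of wild-type mice and 4955 and 5498 in wild-type pre-B cells, and its log2 fold change was -0.16 in each genotype (SE 0.10 each, adjusted p = 0.27 and 0.268). The 95% interval for Hdac1 in wild-type cells ran from -0.40 to 0.09 on the log2 scale. Per kb of exon, Hdac1 was 2.05 and 2.09 times Hdac2 in wild-type pro-B libraries and 2.89 and 2.65 times in wild-type pre-B libraries, and the ratios in Sirt7-/- cells were 1.89 in both pro-B libraries and 2.99 and 2.53 in the pre-B libraries. Reads of Hdac1 can be split with a copy elsewhere in the genome: 34.8% of the 31-base stretches of its transcripts also occur in Gm10093, a transcript with between 2497 and 2850 normalized counts in the sorted libraries, so the level of Hdac1 is uncertain.

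Hdac8 rose, and Hdac3 did not pass the test in either genotype. Hdac8 had 1716 and 1815 normalized counts in pro-B cells of wild-type mice and 2973 and 3207 in wild-type pre-B cells, giving a log2 fold change of 0.81 (SE 0.10, adjusted p = 0.00113). It went in Sirt7-/- cells from 1521 and 1671 normalized counts to 2452 and 2451, a log2 fold change of 0.62 (SE 0.10, adjusted p = 0.00426), and the stages did not overlap. Hdac3 had 4528 and 4727 normalized counts in pro-B cells of wild-type mice and 5324 and 5193 in wild-type pre-B cells, giving a log2 fold change of 0.18 (adjusted p = 0.469). The Sirt7-/- replicates of Hdac3 disagreed, with 4879 and 6373 normalized counts in pro-B and 5397 and 3817 in pre-B cells, giving a log2 fold change of -0.30 (adjusted p = 0.257), which ranged from -0.55 without pre-B replicate 1 to -0.05 without pre-B replicate 2, with -0.49 and -0.10 without pro-B replicates 1 and 2. Replicate 2, from the mouse with the high erythroid markers, held both the highest and the lowest value of Hdac3 in the sorted cells, and the part of those markers in it was not tested.

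**Figure D2:**
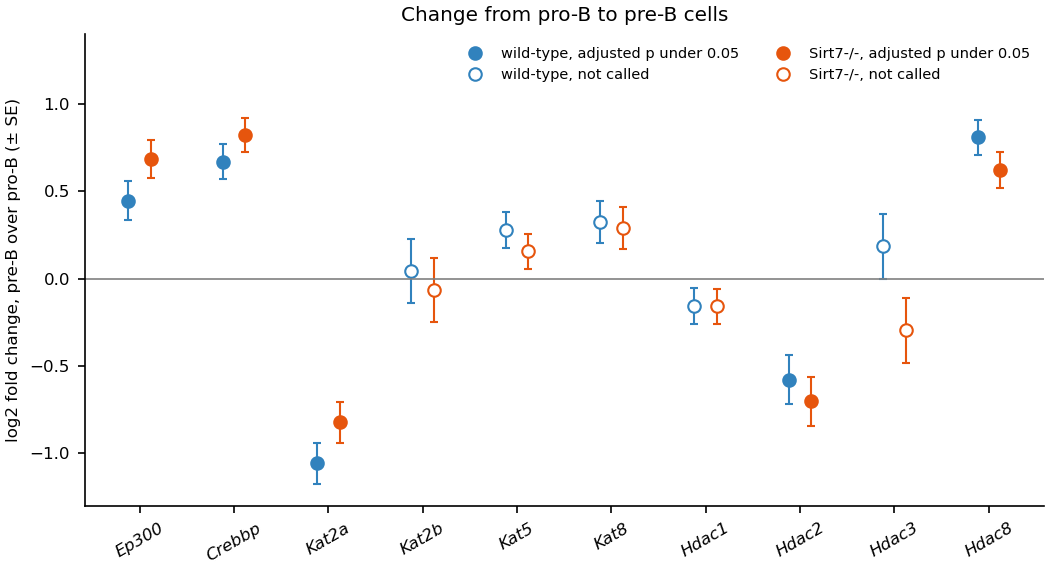
The log2 fold change of pre-B over pro-B cells (y axis) for each gene (x axis) in wild-type (blue) and Sirt7-/- (orange) cells, with bars of 1 SE. Filled points have an adjusted p under 0.05: Kat2a fell most in wild-type cells (-1.06), Hdac8 rose most there (0.81), and each of the 5 called genes has the same sign in the 2 genotypes.

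Whether Sirt7 changed these stage differences was tested with an interaction term, which was called for 0 of 10 members in limma and for 0.00567% of all genes tested. No member had an unadjusted p under 0.05, where 5.43% of all genes did. On the recovered reads edgeR and DESeq2 also called 0 of 10 members, beside 0.00567% and 0.572% of all genes. The interaction estimates ran from -0.48 for Hdac3 to 0.24 for Ep300. Their 95% intervals reached from -1.11 to 0.63 on the log2 scale. Leaving out libraries cost some calls: in wild-type cells Hdac2 lost its call without pre-B replicate 1 (adjusted p = 0.0863), without pro-B replicate 1 (0.0726) and without pro-B replicate 2 (0.0739), and Ep300 without pre-B replicate 2 (0.0876) and without pro-B replicate 1 (0.0984), which left between 3 and 4 of 10 called. In Sirt7-/- cells Hdac2 lost its call without pre-B replicate 1 (0.0518) and without pro-B replicate 2 (0.061), and the same 5 members were called without pre-B replicate 2, the library that stood apart. With the 4 libraries whose labels agreed on the stage, 1 per group and so without a test, Ep300, Crebbp and Hdac8 were again higher and Kat2a and Hdac2 lower in pre-B cells of both genotypes, with log2 differences of 0.58, 0.67, 0.90, -1.01 and -0.44 in wild-type cells and 0.81, 1.01, 0.69, -0.62 and -0.47 in Sirt7-/- cells.

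Markers of cycling and of other cells moved with the stage. All 24 cell cycle genes listed fell in both genotypes, with medians on the log2 scale of -1.69 (wild-type) and -1.10 (Sirt7-/-). Their summed normalized count was 503852 and 525287 in wild-type pro-B, 138767 and 186072 in wild-type pre-B, 472253 and 504776 in Sirt7-/- pro-B and 189258 and 274582 in Sirt7-/- pre-B libraries, led by Mki67. The 8 immature and mature B markers, led by Cd74 or Ighd, all rose, with sums between 50666 and 68208 in pro-B and between 204645 and 489253 normalized counts in pre-B libraries. The 4 plasma cell markers summed to between 23094 and 60561 normalized counts in pro-B and between 5725 and 6975 in pre-B libraries, and most of the pro-B sum was Jchain, with between 20006 and 57036. The 9 T cell markers summed to at most 6100 normalized counts, led by Lck, which B progenitors also express, and Cd3e and Cd3g were at 0 in all 4 pre-B libraries. The 8 myeloid markers summed to between 9531 and 33570 normalized counts in pro-B libraries, led by S100a9 or Itgam, and to between 10674 and 15208 in pre-B libraries. The part of cycling and of other cells in the changes of the members was not tested, and in bulk samples fewer cells of a type and less RNA per cell cannot be told apart.

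**Figure D3:**
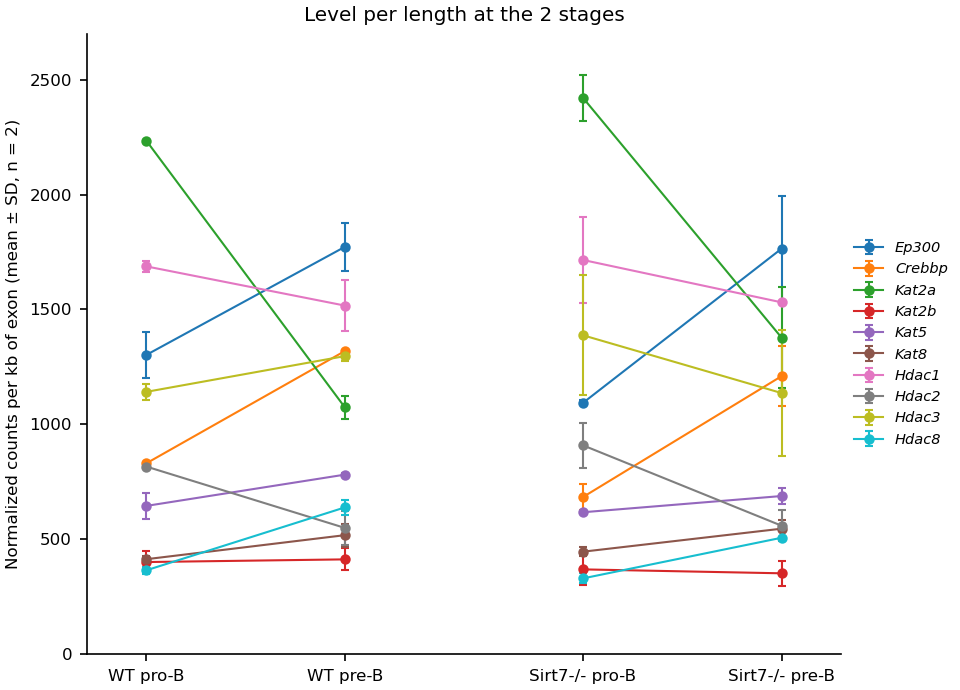
Normalized counts per kb of exon (y axis, mean ± SD of 2 libraries) for the 10 genes in wild-type (left) and Sirt7-/- (right) pro-B and pre-B cells, joined by a line for each gene. Kat2a leads in pro-B cells of both genotypes (2235 and 2421 per kb) and Ep300 in pre-B cells (1772 and 1765 per kb).

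Levels of different genes were compared per kb of annotated exon. In wild-type pro-B cells the order was Kat2a with 2235 ± 1.59 normalized counts per kb (SD, n = 2), Hdac1 with 1688 ± 23.96, Ep300 with 1302 ± 99.0, Hdac3 with 1141 ± 34.6, Crebbp with 830.2 ± 0.0045, Hdac2 with 816.6 ± 0.597, Kat5 with 645.1 ± 57.4, Kat8 with 413.2 ± 14.6, Kat2b with 400.9 ± 48.1 and Hdac8 with 364.8 ± 14.3. Kat8 and Kat2b overlapped between libraries, as did Kat2b and Hdac8, and the other neighbours in that order did not. In wild-type pre-B cells Ep300 led with 1772 ± 105 normalized counts per kb, followed by Hdac1 with 1517 ± 111, Crebbp with 1319 ± 1.10, Hdac3 with 1297 ± 22.9 and Kat2a with 1075 ± 50.1. Kat2a was thus at rank 1 and then at rank 5, and Kat2b was lowest with 412.5 ± 47.5. Per kb of the longest transcript instead, Kat2a was at rank 2 of 10 behind Hdac1 in wild-type pro-B cells and at rank 7 in wild-type pre-B cells. In Sirt7-/- cells Kat2a was also at rank 1 in pro-B cells (2421 ± 99.0) and at rank 3 in pre-B cells (1378 ± 218), where its libraries overlapped those of Hdac1 and of Crebbp.

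The partners of these enzymes were followed through lists of subunits, described by their counts, which stand beside the 40.2% (wild-type) and 35.7% (Sirt7-/-) of all genes called between the stages. Of 16 SAGA and ATAC subunits tested, 4 rose and 4 fell with the stage for wild-type mice, and 3 and 5 for Sirt7-/- mice. Supt3 had 582.1 normalized counts in pro-B and 205.9 in pre-B cells of wild-type mice (log2 fold change -1.50, adjusted p = 0.000858), Taf5l fell by 1.21 on the log2 scale (adjusted p = 0.00429), and Atxn7, of the deubiquitinating module of SAGA, rose by 0.95 (adjusted p = 0.00043). In Sirt7-/- cells Supt3, Tada2a and Taf5l had log2 fold changes of -1.56, -1.10 and -0.87, with adjusted p-values of 0.00114, 0.00221 and 0.0188. Of 23 subunits of the TIP60, MSL and NSL complexes, 6 rose and 5 fell in wild-type cells and 2 and 3 in Sirt7-/- cells. The ATPases Ruvbl1 and Ruvbl2 and the actin-related Actl6a fell most in both genotypes, with log2 fold changes of -1.08, -0.81 and -0.77 in wild-type and -1.10, -0.76 and -0.70 in Sirt7-/- cells. On the log2 scale the SAGA and ATAC list had a median of 0.07 (wild-type) and -0.05 (Sirt7-/-) and the TIP60, MSL and NSL list 0.06 and 0.00325, beside -0.04 for all genes in each genotype.

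Subunits of the complexes of Hdac1 and Hdac2 were called in both directions. Of 9 NuRD subunits 4 fell and 0 rose in wild-type cells, led by Mta1 with 12295 normalized counts in pro-B and 5383 in pre-B cells (log2 fold change -1.20, adjusted p = 0.000452), and in the other genotype 3 fell, Mta1 by 0.69 on the log2 scale (adjusted p = 0.00458), and Chd3 rose by 0.28 (adjusted p = 0.0499). Of 13 SIN3 subunits 3 rose and 3 fell in wild-type cells, and 3 and 5 did so in Sirt7-/- cells. The histone chaperone Rbbp7 fell by 1.19 in wild-type and by 1.09 in Sirt7-/- cells (adjusted p = 0.00768 and 0.0131), and Arid4b rose by 0.58 and 0.59 (adjusted p = 0.00267 and 0.00334). Of 11 CoREST and MiDAC subunits 2 rose in wild-type and 3 in Sirt7-/- cells and none fell, with Zmym2 and Phf21a rising by 0.70 and 0.56 in wild-type cells (adjusted p = 0.0118 and 0.00435). The median log2 fold changes of the NuRD, SIN3 and CoREST lists were -0.26, -0.17 and 0.04 in wild-type cells and -0.18, -0.38 and 0.07 in Sirt7-/- cells. Among subunits of the Hdac3 complex, Tbl1xr1 fell while Gps2 and Tbl1x rose in wild-type cells, Gps2 by 0.42 and Tbl1x by 0.25, and Gps2 rose by 0.57 in Sirt7-/- cells (adjusted p = 0.00239).

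Other writers and erasers of acetylation are set beside the same shares of all genes. Of 10 other acetyltransferases 2 rose and 4 fell in wild-type cells, and 3 each way in Sirt7-/- cells. Hat1, which acetylates newly made histone H4, had 2297 normalized counts in pro-B and 895.7 in pre-B cells of wild-type mice (log2 fold change -1.36, adjusted p = 0.00364), and the nuclear receptor coactivators Ncoa3 and Ncoa1 rose by 0.91 and 0.83 (adjusted p = 0.000342 and 0.000752). Without Sirt7, Hat1, Ncoa3 and Ncoa1 had log2 fold changes of -1.21, 1.07 and 0.83. Of 7 class II and IV deacetylases 3 rose and 1 fell in each genotype. Hdac9, a class IIa enzyme, had 2210 normalized counts in pro-B and 6684 in pre-B cells of wild-type mice (log2 fold change 1.61, adjusted p = 0.00033) and rose by 1.54 in Sirt7-/- cells, and Hdac10 rose by 0.86 and 0.91. Hdac6, the cytoplasmic tubulin deacetylase, fell by 0.84 in wild-type cells (adjusted p = 0.00158). Slc25a1, the citrate carrier that feeds acetyl-CoA synthesis, was the only 1 of 5 acetyl-CoA genes called, with 3501 normalized counts in pro-B and 1509 in pre-B cells of wild-type mice (log2 fold change -1.22, adjusted p = 0.00069) and a log2 fold change of -1.36 in Sirt7-/- cells. Of the 7 sirtuins, Sirt7 and Sirt2 rose and Sirt3 fell in wild-type cells, by log2 fold changes of 1.05, 0.68 and -0.60 (adjusted p = 0.00157, 0.00336 and 0.0395), and without Sirt7 3 rose and 1 fell. The reads left at Sirt7 in Sirt7-/- cells were among those that rose.

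Loss of Sirt7 was compared at each stage and in culture, to ask whether other enzymes of acetylation changed with it. In pro-B cells 0 of 10 members were called (0.0623% of all genes were), in pre-B cells 0 of 10 (0.085%) and in cultured cells 0 of 10 (0.557%). At an unadjusted p under 0.05 there were 1, 2 and 0 members, where 5.94%, 13.6% and 9.68% of all genes were. In sorted pro-B and pre-B cells edgeR called 0 of 10 members (0.0567% and 0.0283% of all genes), and DESeq2 also 0 of 10 (0.714% and 4.08%). The log2 fold changes ran from -0.28 (Crebbp) to 0.27 (Hdac3) in pro-B, from -0.33 (Hdac8) to 0.35 (Kat2a) in pre-B and from -0.37 (Kat2b) to 0.05 (Kat5) in cultured cells. The 95% intervals of the 10 members lay between 0.678-fold and 1.64-fold in pro-B, between 0.629-fold and 1.55-fold in pre-B and between 0.518-fold and 1.33-fold in cultured cells. Without Sirt7-/- pro-B replicate 1 or wild-type pro-B replicate 1 the number of all genes called in pro-B cells went from 11 to 0, and without Sirt7-/- pre-B replicate 1 that in pre-B cells went from 15 to 177. Of the 134 genes of the other lists, Sirt7 itself was the only gene called in each of these comparisons.

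Individual members lay apart between the genotypes without passing the test. In pro-B cells 7 of 10 members did not overlap between the genotypes, where 39.3% of all genes tested did not, and in pre-B cells 4 of 10, where 41.4% did not. Hdac8 in pre-B cells had 2973 and 3207 normalized counts in wild-type and 2452 and 2451 in Sirt7-/- libraries, a log2 fold change of -0.33 (95% interval -0.57 to -0.09, adjusted p = 0.234). Kat2a in pre-B cells had 3617 and 3863 in wild-type and 4257 and 5332 in Sirt7-/- libraries, a log2 fold change of 0.35 (95% interval 0.07 to 0.63, adjusted p = 0.269). Without Sirt7-/- pre-B replicate 2, the library that stood apart, it was 0.19 (adjusted p = 0.542 by limma), and without replicate 1 it was 0.51 (adjusted p = 0.0814). In these pre-B libraries the cell cycle genes summed to 138767 and 186072 normalized counts in wild-type and 189258 and 274582 in Sirt7-/- cells. The immature and mature B markers summed to 329991 and 204645 against 489253 and 326257, and the part of these markers in the values was not tested. Kat2b had log2 fold changes of -0.13 in pro-B (adjusted p = 0.981), -0.23 in pre-B (adjusted p = 0.619) and -0.37 in cultured cells (adjusted p = 0.828), and its libraries overlapped between the genotypes in all 3. With 1 library left out these values lay between -0.31 and 0.06, between -0.39 (without Sirt7-/- replicate 2) and -0.07 (without Sirt7-/- replicate 1), and between -0.63 (without wild-type replicate 2) and -0.10 (without wild-type replicate 1). In culture it had 1147 and 793 normalized counts in wild-type and 834 and 657 in Sirt7-/- cells with EV, lower in Sirt7-/- cells within each replicate number (adjusted p = 0.363 by limma with that number as a block). In culture 1 of 10 members, Hdac1, did not overlap between the genotypes (34.6% of all genes did not), with 4424 and 4686 normalized counts in wild-type and 3747 and 4214 in Sirt7-/- cells and a log2 fold change of -0.20 (adjusted p = 0.604).

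**Figure D4:**
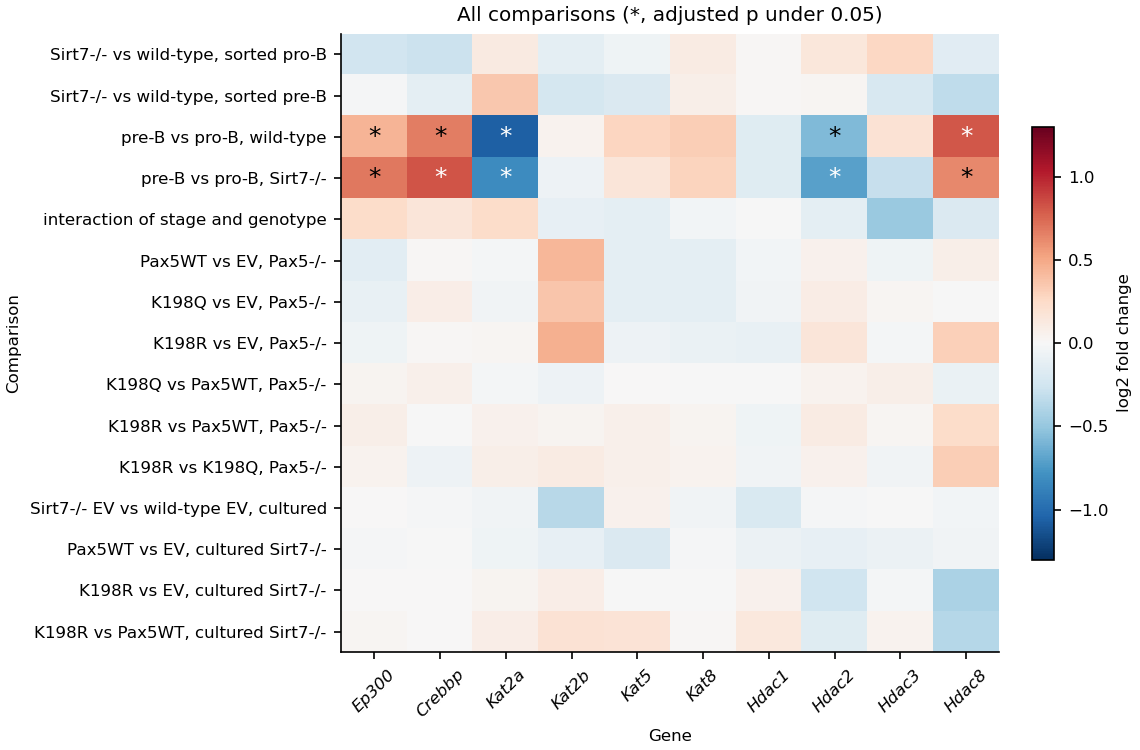
The log2 fold change (colour) of the 10 genes (columns) in all 15 comparisons (rows), with asterisks at an adjusted p under 0.05. Asterisks appear only in the pre-B against pro-B rows, for 5 genes in each genotype.

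In Pax5-/- cells the Pax5 forms were compared with EV and with each other, to ask how the enzymes differ with each form. Pax5 transcripts were higher with K198R than with Pax5WT (log2 fold change 1.57, adjusted p = 0.0029) and with K198Q (1.07, adjusted p = 0.00526). Form and amount of Pax5 therefore cannot be told apart between these groups. With Pax5WT 0 of 10 members were called (3.25% of all genes), with K198Q 0 of 10 (0.922%) and with K198R 0 of 10 (9.92%). Between the forms there were 0 of 10 for K198Q against Pax5WT (0.0225% of all genes), for K198R against Pax5WT (2.87%) and for K198R against K198Q (5.01%). At an unadjusted p under 0.05 there was 1 member, Kat2b, with each form against EV (14.4%, 7.86% and 22.9% of all genes) and 0 between the forms (3.46%, 12.7% and 16.9%). Groups did not overlap for 2, 3 and 3 members with the 3 forms against EV (42.6%, 34.2% and 46.8% of all genes), and for 0, 3 and 1 between the forms in the order above (28.7%, 38.4% and 43.1%). Over these 6 comparisons the log2 fold changes ran from -0.13 (Ep300, Pax5WT against EV) to 0.47 (Kat2b, K198R against EV).

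Kat2b was the member that differed most from EV. It had 636 and 598.9 normalized counts with EV, 792 and 874 with Pax5WT, 763 and 827 with K198Q, and 955 and 762 with K198R. Every library with a Pax5 form lay above both EV libraries. For each form taken alone, 21.3%, 16.1% and 23.5% of all genes showed such a separation upwards. The share of genes with all 3 forms above EV was not counted. The log2 fold changes were 0.43 (SE 0.14, adjusted p = 0.194), 0.36 (SE 0.14, adjusted p = 0.547) and 0.47 (SE 0.14, adjusted p = 0.0889), and the comparisons share the EV libraries. With the replicate number as a block in limma the adjusted p-values were 0.0778, 0.232 and 0.0366. Kat2b was then called for K198R, in fits that called 10.1%, 2.72% and 21.2% of all genes for the 3 forms. Without K198R replicate 1 the log2 fold change of Kat2b for K198R was 0.30. Among the forms Kat2b overlapped, with log2 fold changes of -0.07 for K198Q against Pax5WT, 0.04 for K198R against Pax5WT and 0.10 for K198R against K198Q. Hdac8 was higher with K198R, at 421 and 489 normalized counts against 352 and 380 with EV, 355 and 419 with Pax5WT and 368 and 359 with K198Q, and its log2 fold changes for K198R were 0.31 against EV (adjusted p = 0.298), 0.24 against Pax5WT (adjusted p = 0.678) and 0.32 against K198Q (adjusted p = 0.368). The first of these was 0.20 without K198R replicate 2 and 0.42 without K198R replicate 1. The 4 plasma cell markers summed to 68131 and 66099 normalized counts with EV and 42370 and 36986 with Pax5WT. With K198Q the sum was 49927 and 44128, and with K198R 32361 and 26727. Nearly all of it was 1 gene, Jchain, with 67983 and 65946 with EV and 32232 and 26540 with K198R. The 5 NK cell markers summed to 1232 and 1111 with EV and 327 and 168 with K198R. The 8 B lineage markers, Pax5 among them, summed to 13187 and 13203 with EV and 73129 and 70104 with K198R. The part of these markers in the values of Kat2b and Hdac8 was not tested. The other 8 members had log2 fold changes between -0.13 and 0.16 in the 6 comparisons.

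**Figure D5:**
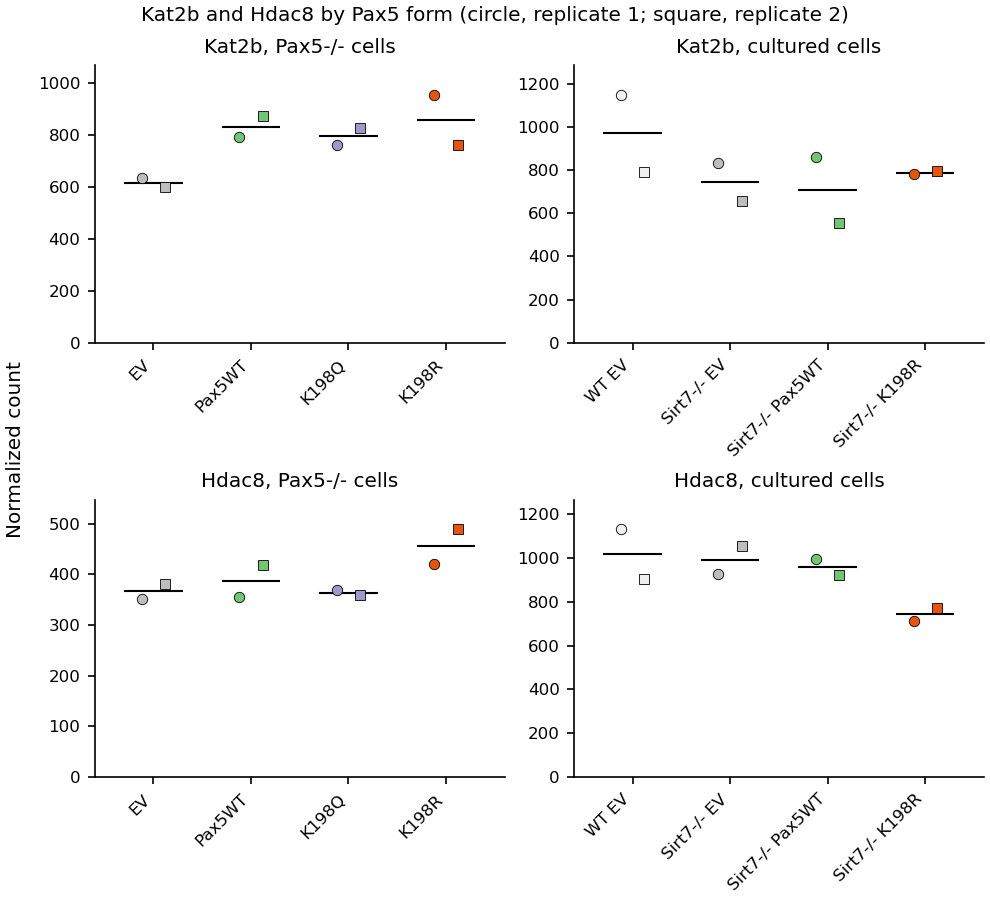
Normalized count (y axis, from 0) of Kat2b (top) and Hdac8 (bottom) in Pax5-/- cells with each Pax5 form (left) and in cultured wild-type (WT) and Sirt7-/- cells (right), with circles for replicate 1, squares for replicate 2 and lines for means. Kat2b with any form lies above both EV libraries in Pax5-/- cells, and Hdac8 with K198R is higher than with EV in Pax5-/- cells (421 and 489) and lower in Sirt7-/- cells (714 and 771).

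In cultured Sirt7-/- cells, to which Pax5 was added on top of their own, 0 of 10 members were called for Pax5WT against EV (0.0366% of all genes), 0 of 10 for K198R against EV (4.83%) and 0 of 10 for K198R against Pax5WT (0.425%). At an unadjusted p under 0.05 there were 0, 2 and 1 members (9.91%, 18.4% and 8.78% of all genes), and groups did not overlap for 2, 3 and 5 members (38.7%, 49.6% and 37.7% of all genes). Kat2b had 859 and 553 normalized counts with Pax5WT and 780 and 796 with K198R, against 834 and 657 with EV, and the groups overlapped. Hdac8 had 925 and 1054 normalized counts with EV, 997 and 921 with Pax5WT and 714 and 771 with K198R, a log2 fold change for K198R of -0.41 against EV (SE 0.15, adjusted p = 0.178) and of -0.37 against Pax5WT (adjusted p = 0.499). Against EV it ranged from -0.51 without EV replicate 1 to -0.32 without EV replicate 2. Hdac2 had 3464 and 4026 normalized counts with EV and 3212 and 3037 with K198R, a log2 fold change of -0.26 (adjusted p = 0.258). For both genes the K198R libraries lay below the EV libraries. The immature and mature B markers, led by Ighd, summed to 3074 and 4186 normalized counts with EV, 7018 and 16462 with Pax5WT and 15109 and 41813 with K198R, and the T cell markers, led by Thy1, to 2808 and 1616, 1038 and 383, and 787 and 381. The OP9 stroma markers, led by Cxcl12, summed to 3114 and 4743 with EV, 5513 and 11185 with Pax5WT and 4178 and 8520 with K198R. The part of these cells or states in the values was not tested.

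In Pax5-/- cells with K198R against EV, 4 of 133 list genes, cell cycle genes included, rose and 3 fell, where 9.92% of all genes were called. The acetyltransferase of the circadian clock, Clock, rose by 0.95 on the log2 scale (adjusted p = 0.00609), the ATAC subunit Mbip by 0.91 (adjusted p = 0.00461), Mbd2 of NuRD by 0.66 (adjusted p = 0.00362) and Ing3 of TIP60 by 0.49 (adjusted p = 0.0302). Those that fell were Rcor2 of CoREST by 0.86 (adjusted p = 0.0336), Hdac9 by 0.72 (adjusted p = 0.0105) and Mta3 of NuRD by 0.55 (adjusted p = 0.0202). Chd3, a remodelling ATPase of NuRD, was the partner gene with the largest difference between the forms. It had 195 and 152 normalized counts with EV, 883 and 1484 with Pax5WT, 956 and 1258 with K198Q, and 211 and 113 with K198R. It rose with Pax5WT and with K198Q against EV (log2 fold changes 2.73 and 2.66, adjusted p = 0.00759 and 0.0154) and was lower with K198R than with Pax5WT and K198Q (-2.88 and -2.82, adjusted p = 0.0097 and 0.00727). Form and amount of Pax5 cannot be told apart in these differences between the forms. In cultured Sirt7-/- cells, where it stood at 6360 and 6435 normalized counts with EV, Chd3 had 10755 and 11336 with K198R (log2 fold change 0.79, adjusted p = 0.00989) and 9357 and 10399 with Pax5WT. The other list gene called in cultured Sirt7-/- cells was Arid4b of SIN3, which fell by 0.49 with K198R (adjusted p = 0.0326).

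The genes whose pattern was most like that of Kat2b over all 24 RNA libraries were found by Pearson's r of log2 of the normalized count plus 1, centred within each table, among 10505 genes tested in all 3 tables. They were Zfp189 (r = 0.775), Thap2 (r = 0.765) and Sacm1l (r = 0.734). Within the tables of sorted, Pax5-/- and cultured cells the r of Zfp189 was 0.704, 0.781 and 0.801. Thap2, like Kat2b, was higher in replicate 2 than in replicate 1 in each of the 4 sorted groups, so that part of the likeness lies between replicates, and libraries with the same replicate number are not independent points. Of the other members Crebbp was the most alike (r = 0.283, rank 1449), and Kat2a had an r of -0.127. These values are a description of 24 libraries that share tables and cultures.

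Peaks of Pax5 ChIP-seq in Pax5-/- cells with Pax5WT, K198Q or K198R were set beside the members. The authors called peaks for each replicate against its input, 10646 and 11830 for Pax5WT, 3750 and 3957 for K198Q and 12158 and 13997 for K198R, and the peak names inside the list of K198R replicate 2 carry another replicate number. A member was counted where both replicates had a peak within 10 kb of an annotated start site. With Pax5WT these were Kat2a, Kat8 and Hdac3, 3 of 10, against 41% of 13283 genes tested for expression, and the replicates had their Kat8 peaks at different sites, with summits at -8402 and 9968 bases from its start. With K198Q there were 0 of 10, against 15.3%. With K198R there were Ep300, Crebbp, Kat8, Hdac2, Hdac3 and Hdac8, 6 of 10, against 47.5%. Each count is within 2 genes of what the share of all genes would give for 10 members.

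Within 1 kb of a start site, peaks in both replicates of a form were found for Kat2a, Crebbp, Hdac2 and Ep300. The median fold enrichment of a whole Pax5WT or K198R peak list was between 5.68 and 5.83. Kat2a (chr11:100704746-100712465, minus strand, mm10) had peaks over an exon at its start with Pax5WT in both replicates, with fold enrichments at the summit of 7.58 and 5.32 and a -log10 q of 14.4 and 7.40, and none within 10 kb with K198Q or K198R. Crebbp (chr16:4081328-4213997, minus strand) had K198R summits at -118 and -164 bases from its start, with fold enrichments of 4.69 and 3.54, and a summit in 1 of 2 Pax5WT replicates at -180 with a fold enrichment of 5.58. Hdac2 (chr10:36974544-37001889, plus strand) had K198R summits at -354 and -319 bases, with fold enrichments of 6.90 and 4.38, and no peak with Pax5WT or K198Q. Ep300 (chr15:81585351-81652077, plus strand) had K198R summits in its first kb, in exons, with fold enrichments between 4.24 and 4.74, and a summit there in 1 of 2 Pax5WT replicates with a fold enrichment of 3.74. The strongest peak near a member was upstream of Kat8, at -8418 and -8370 bases from its start and over an exon of Bckdk, with K198R fold enrichments of 9.86 and 7.88. At that site 1 of 2 Pax5WT replicates had a peak with a fold enrichment of 4.13 and 1 of 2 K198Q replicates one of 6.59, the only K198Q peak within 10 kb of a member. Within 10 kb Kat2b had a single peak, in an intron 1565 bases from its start in 1 of 2 K198R replicates, with a fold enrichment of 3.68. The log2 fold changes of Kat2a, Crebbp, Hdac2 and Ep300 for the form with both peaks against EV were -0.02, 0.01, 0.16 and -0.05.

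Within 1 kb of a start site, Crebbp, Hdac2 and Kat2a had peaks of 1 form that lay or reached upstream of the gene in both replicates. For Ep300 only peaks of replicate 1 reached upstream, from 81585336 with K198R and 81585174 with Pax5WT against a gene start at 81585351. The sequences under the upstream peaks of the first 3 genes are shown. They were read from GRCm38, the build of mm10, and are written 5′ to 3′ on the strand of the gene, with CpG dinucleotides in capitals. For Crebbp and Hdac2 they are the 101 bases around the summit of K198R replicate 1, chr16:4214065-4214165 and chr10:36974140-36974240, and for Kat2a the 84 bases upstream of the gene that the peak of Pax5WT replicate 1 covers, chr11:100712466-100712549.
Crebbp: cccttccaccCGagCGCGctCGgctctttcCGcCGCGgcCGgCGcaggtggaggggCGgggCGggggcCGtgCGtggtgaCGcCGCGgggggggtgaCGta
Hdac2: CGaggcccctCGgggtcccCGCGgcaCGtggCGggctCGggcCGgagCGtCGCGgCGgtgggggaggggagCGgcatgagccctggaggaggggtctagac
Kat2a: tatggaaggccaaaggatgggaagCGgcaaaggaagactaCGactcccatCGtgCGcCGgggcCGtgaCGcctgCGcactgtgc
The stretches hold 17, 13 and 8 CpG dinucleotides at 80.2%, 79.2% and 63.1% G and C, where the median 101-base window around a summit held 5 at 60.4% for K198R replicate 1 and 4 at 59.4% for Pax5WT replicate 1, and the Kat2a stretch is shorter than these windows. The Kat2a stretch also leaves out the summit of its peak, 117 bases inside the gene. Neither its base content nor the search below therefore covers that summit. The letters GCGTGAC, taken as the core that the paired domain of Pax5 prefers, were searched on both strands and are in none of these stretches. In the windows around all summits they are in between 3.34% and 3.91% for K198R and Pax5WT and in 5.63% and 5.14% for K198Q.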

How the data were processed

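The authors quantified RNA-seq reads with Salmon against mm10 and deposited a signal for each gene, its count normalized by DESeq2. For sorted cells 100% of the values were whole multiples of 1 number per library (within 0.01), and whole reads were recovered. For the other libraries they were not, and 1 factor per library is not shown. Peaks were called by the authors with MACS2 on reads mapped by Bowtie2. The deposited lists give fold enrichment, a ratio, and −log10 of the q-value. Inputs were not used here.

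Genes with at least 10 normalized counts in 2 of 8 libraries were tested with limma 3.58.1 in R 4.3.3 (log2 of the value plus a pseudocount of 1, variance trend, Benjamini-Hochberg). Alternatives were other pseudocounts, no filter, equal totals, the compared groups alone, a fold threshold, a block and leaving out libraries. edgeR 4.0.16 and DESeq2 1.42.0 on the recovered reads were alternatives for the sorted cells, and the fit was tested on simulated data. All comparisons used the labels' titles for stage. Sorted pro-B and pre-B libraries of 1 mouse share its number, and their deviations from the group means correlated at 0.156 and 0.0798. For the cultures the methods say that replicates were made on different days, without saying that a number marks a day, and same-numbered libraries correlated at 0.264 to 0.383 in Pax5-/- and 0.156 to 0.428 in the other cultures. Positions and exon lengths are those of GENCODE M21. Shared 31-base stretches were counted between its transcripts. All 10 members are named. From each other list up to 3 called genes with the largest change per comparison are named, and for Kat2b the 3 most alike genes. Exceptions are genes named for a peak, an overlap or a shared sequence, and Chd3 and Arid4b with further groups. For K198R against K198Q in Pax5-/- cells, where 3 list genes rose and 2 fell, only Chd3 is named. The members, lists and tests were chosen with earlier results of these data known. No column of sample values was left unused (0). Of 134 list genes, Sgf29 had no row in the sorted table. Some results of the lists are not reported here.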

Additional observations from a re-analysis of the deposited data

Results flagged for a closer look

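Hdac8 with K198R had log2 fold changes of opposite sign in the 2 cultures, with no overlap between groups in either. Against EV its log2 fold change was 0.31 in Pax5-/- cells and -0.41 in Sirt7-/- cells, and against Pax5WT it was 0.24 and -0.37. Groups did not overlap for 46.8% and 49.6% of all genes against EV, and for 38.4% and 37.7% against Pax5WT. In Pax5-/- cells the lowest K198R library of Hdac8 had 421.25 normalized counts, and the highest Pax5WT library had 418.8. Hdac2 with K198R against Pax5WT also had no overlap between groups in either culture. In Pax5-/- cells its lowest K198R library had 4645.5 normalized counts, and its highest Pax5WT library had 4643.28. Its log2 fold change was 0.10 (SE 0.13, adjusted p = 0.892) in Pax5-/- and -0.15 (SE 0.11, adjusted p = 0.853) in Sirt7-/- cells. These values establish neither sign, so no direction is given for Hdac2. These differences between the cultures were not tested, and no single value passed an adjusted p of 0.05. The tables were normalized separately, and the cultures also differ in strain, source and the Pax5 they hold of their own. Hdac8 lies on chromosome X, and 4 Y-linked genes, among them Ddx3y, summed to between 9825 and 11537 normalized counts in the Pax5-/- libraries and to between 103 and 164 in the other cultured libraries. The part of this in the values was not tested.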

How the results depend on the processing

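The stage counts of 5 of 10 members fell to 0 in both genotypes when calls also needed a log2 fold change of 1.5 or more in size (13.9% and 10.2% of all genes), and ranged from 3 to 4 in wild-type and from 4 to 5 in Sirt7-/- cells when 1 library was left out. DESeq2 added Kat5 (adjusted p = 0.0438) and Kat8 (0.0473) in wild-type cells (42.8% of all genes). Pseudocounts of 0.5 and 10, no filter, the compared groups alone and edgeR each called 5, where the shares of all genes in wild-type and Sirt7-/- cells were 25.5% and 21.9% with no filter, 37.7% and 26.5% with the groups alone and between 33.8% and 41.1% otherwise. Over all genes DESeq2 called 126 and 720 for loss of Sirt7 in pro-B and pre-B cells, against 11 and 15 by limma and 10 and 5 by edgeR and 0 and 0 with the compared groups alone, and 101 against 1 for the interaction, with 0 members called in each. Rescaling to equal totals moved the median of all genes from -0.04 to -0.12 (wild-type) and from -0.04 to -0.14 (Sirt7-/-), and the same 5 members were called. Kat2b had no stable sign between stages: -0.0442 after rescaling in wild-type cells, between -0.081 and 0.16 (wild-type) and between -0.25 and 0.12 (Sirt7-/-) with 1 library left out, and 0.28 in Sirt7-/- cells with only the libraries of agreeing labels, a choice made after seeing the data. Kat2b between the genotypes in pro-B cells ranged from -0.31 to 0.0595. The mouse as a block changed no call of a member. In the cultured tables the replicate number may mark a day. With it as a replicate block 1 of 10 members was called for K198R against EV in Pax5-/- cells, Kat2b (adjusted p = 0.0366), among 2834 genes against 1324 without the block, and no other member call changed. With 1 library left out the genes called ranged from 89 to 166 (Pax5WT against EV), 31 to 67 (K198Q against EV), 561 to 1484 (K198R against EV), 20 to 576 (K198R against Pax5WT), 32 to 920 (K198R against K198Q) and 0 to 1 (K198Q against Pax5WT) in Pax5-/- cells. In the cultured cells they ranged from 3 to 60 (loss of Sirt7), 1 to 5 (Pax5WT against EV), 63 to 228 (K198R against EV) and 2 to 13 (K198R against Pax5WT). The block also raised the genes called from 434 to 1343 (Pax5WT against EV), 123 to 363 (K198Q against EV), 383 to 1004 (K198R against Pax5WT) and 668 to 1749 (K198R against K198Q) in Pax5-/- cells, and from 76 to 288 (loss of Sirt7), 5 to 268, 659 to 1588 and 58 to 314 (Pax5WT and K198R against EV, K198R against Pax5WT) in the cultured cells. With the compared groups alone these counts were 673 for K198R against EV, 40 against Pax5WT and 89 against K198Q, and 0 for loss of Sirt7 and for Pax5WT and 5 for K198R against Pax5WT in the cultured cells.

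Members with a Pax5 peak in both replicates numbered 1, 0 and 3 (Pax5WT, K198Q, K198R) within 1 kb (30.9%, 10.6% and 37.1% of all genes), 8, 2 and 10 within 50 kb (65.4%, 31.9% and 70.3%), 0, 0 and 1 at a -log10 q of at least 10 (20.5%, 6.38% and 23.7%), and 6, 1 and 9 with a peak in at least 1 replicate (58.3%, 28.9% and 63.9%), also chosen after seeing the data. Per kb of the longest transcript, levels in wild-type pro-B cells were 1943 for Ep300, 1039 for Crebbp, 2380 for Kat2a, 1008 for Kat5, 756.5 for Kat8, 2853 for Hdac1, 1124 for Hdac2, 1291 for Hdac3 and 778.8 for Hdac8, so that Hdac1 and not Kat2a led.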

Other observations

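The Sirt7-/- mouse of replicate 2 had 19328 and 22303 normalized counts of the globin Hba-a1 in its pro-B and pre-B libraries, and the other 6 sorted libraries had between 2365 and 5263. Its pre-B library also had 4122 normalized counts of Igll1, a surrogate light chain gene, where the other pre-B libraries had between 493.5 and 1324. Cxcl12 led the OP9 stroma markers in the cultured tables, whose sum ranged from 869 to 2367 normalized counts in Pax5-/- and from 3114 to 11185 in the other cultured libraries.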
